A study of Mus musculus with 2 samples.

Results

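The genes described here encode the machinery that shows peptides from inside a cell on major histocompatibility complex (MHC) class I molecules. They were chosen by name as 10 genes, H2-K1, H2-D1, B2m, H2-T23, H2-Q7, Tap1, Tap2, Tapbp, Psmb8 and Psmb9, and all 10 had a row among the 32285 gene rows of the library. The cells came from the thymus of adult C57BL/6 mice, digested with enzymes and sorted for surface CD64, an Fc receptor of macrophages and other myeloid cells. All cells carried that 1 genotype, and neither the number of animals nor their age in weeks was given in the labels. Single-cell 3′ RNA libraries were made in 2021 and 2024, and gene values come from the 2021 library, because the rows of the 2024 matrix were not named here.

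A class I molecule is a heavy chain paired with beta-2 microglobulin and holding a short peptide. Peptides are cut in the cytosol by the proteasome, of which the immunoproteasome is a form with exchanged catalytic subunits, and are pumped into the endoplasmic reticulum by the TAP transporter, where tapasin helps to load them. Interferons raise the transcription of most of these genes in many cell types, and the coactivator NLRC5 acts on class I promoters. In the thymus, developing T cells are selected on peptides shown by other cells, while immature thymocytes themselves are known to carry little class I on their surface.

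In the 2021 library 3214 barcodes held 8534578 UMIs (unique molecular identifiers, 1 per captured RNA molecule), and 3185 cells were kept. The median per barcode was 2158 UMIs, against 5312 over 2815 barcodes in the 2024 library. Clustering without the class I pathway genes gave 15 clusters, and 7 classes of cells were named from markers. Conventional dendritic cell-like cells were 21.3% of kept cells and macrophage-like cells 11.8%, although the labels call the sample macrophages. At the finer resolution of 1.0, the larger dendritic cluster went from 561 to 447 cells. A cluster led by Cd209e, unnamed at 132 cells, then held 246 and was named plasmacytoid dendritic cell-like, with Siglech among its raised markers. Values called dendritic below may therefore include plasmacytoid cells, and their part was not tested. T lineage-like cells numbered 382, and 8.51% of cells stayed unnamed. Levels are given as CPM, counts per 1000000 UMIs of the cells. Each has an exact Poisson interval, and each log2 ratio an exact binomial interval, at the 95% level. These cover counting error only, because 1 library gives no replicate and no test, and differences between animals were not measured.

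Of the 10 genes, 9 lie on chromosome 17 and B2m on chromosome 2, by the GENCODE M21 annotation of GRCm38 (mm10). The classical heavy chain genes are H2-K1 (ENSMUSG00000061232, chr17:33996017-34000347, minus strand) and H2-D1 (ENSMUSG00000073411, chr17:35262730-35267499, plus strand). The non-classical heavy chain genes are H2-T23, which encodes Qa-1 (ENSMUSG00000067212, chr17:36029773-36032855, minus strand), and H2-Q7, which encodes a Qa-2 chain (ENSMUSG00000060550, chr17:35439155-35443773, plus strand). B2m (ENSMUSG00000060802, chr2:122147686-122153083, plus strand) encodes the shared light chain. Psmb9 (ENSMUSG00000096727, chr17:34181987-34187764, minus strand), Tap1 (ENSMUSG00000037321, chr17:34187553-34197225, plus strand), Psmb8 (ENSMUSG00000024338, chr17:34197721-34201454, plus strand) and Tap2 (ENSMUSG00000024339, chr17:34203527-34216321, plus strand) stand next to each other. Tapbp, the tapasin gene (ENSMUSG00000024308), spans chr17:33915899-33929292 on the plus strand.

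Some of these rows can take reads of another gene. Of 60-base stretches in the last 500 bases of the longest coding transcript, 30.2% for H2-T23, 4.99% for H2-D1 and 3.63% for H2-Q7 also occur in transcripts of other genes, and 0% for the other 7. H2-T23 values are therefore uncertain. Annotated genes on the opposite strand overlap B2m, H2-T23, Tap1, Tap2, Tapbp, Psmb8 and Psmb9, and whether counting used the strand is not given in the sources used here. Tapbp is also overlapped by Zbtb22 on its own strand, which counting by strand would not separate.

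Promoter sequences are shown for the 3 heavy chain genes whose windows held all 4 motifs searched, and for B2m, the shared light chain, which held 3. Each is the 200 bases upstream of the RefSeq start on GRCm38.p6, read 5′ to 3′ on the gene's strand: chr17:34000348-34000547 (minus strand), chr17:35262894-35263093 (plus strand), chr17:35438955-35439154 (plus strand) and chr2:122147487-122147686 (plus strand). Capitals mark matches, on either strand, to the kB letters GGGATTCCC, the interferon response letters AANNGAAA, the cyclic AMP response core TGACG and CCAAT.
H2-K1: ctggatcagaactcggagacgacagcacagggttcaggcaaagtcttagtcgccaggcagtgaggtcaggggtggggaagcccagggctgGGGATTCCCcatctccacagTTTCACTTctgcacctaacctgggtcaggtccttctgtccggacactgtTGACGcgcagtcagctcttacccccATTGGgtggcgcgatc
H2-D1: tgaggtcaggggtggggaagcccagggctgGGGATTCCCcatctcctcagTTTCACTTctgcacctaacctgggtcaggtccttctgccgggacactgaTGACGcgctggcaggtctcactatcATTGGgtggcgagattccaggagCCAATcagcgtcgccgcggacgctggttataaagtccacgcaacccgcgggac
H2-Q7: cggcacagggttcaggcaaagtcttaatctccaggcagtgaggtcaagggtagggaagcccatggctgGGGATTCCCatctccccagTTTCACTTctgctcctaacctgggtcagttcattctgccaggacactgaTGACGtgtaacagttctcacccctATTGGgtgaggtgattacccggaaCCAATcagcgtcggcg
B2m: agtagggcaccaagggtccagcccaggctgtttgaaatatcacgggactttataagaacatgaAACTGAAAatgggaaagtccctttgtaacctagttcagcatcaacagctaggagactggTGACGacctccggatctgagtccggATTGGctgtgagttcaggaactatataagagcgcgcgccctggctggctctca

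Windows of the same length were searched in 27025 genes of the RefSeq table. The kB letters were in 60 of them (0.222%), the interferon response letters in 4636 (17.2%), the cyclic AMP response core in 4267 (15.8%) and CCAAT in 8112 (30%). All 4 were in 3 windows, those of H2-K1, H2-D1 and H2-Q7. In these the kB match began 110, 170 and 132 bases before the start, each with an interferon response match downstream of it at 90, 150 and 113 bases. The interferon response letters were chosen after these sequences had been seen. A stricter pattern searched first, 2 copies of GAAA separated by 2 bases, was in 629 windows (2.33%), and no window held all 4 motifs with it. B2m held 3 of the 4 motifs, without the kB letters. H2-T23 and Psmb9 held 2, Tap1 and Tapbp 1 and Psmb8 none, and the windows of Tap1 and Psmb9, which face away from each other, overlap by 175 bases. Tap2 had no entry in the promoter table. A match describes letters in a window and nothing about binding.

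Among the classes, H2-K1, H2-D1 and B2m were lowest in T lineage-like cells and highest in natural killer (NK) and innate lymphoid cell (ILC)-like or macrophage-like cells. H2-K1 stood at 536 CPM (486 to 590) in T lineage-like cells. In the other classes it ran from 879 CPM in neutrophil-like through 1218 in monocyte-like, 1246 in dendritic, 1600 in B lineage-like and 1872 in macrophage-like to 2544 CPM (2372 to 2725) in NK and ILC-like cells. The monocyte-like and dendritic values were the only neighbours in that order whose ratio interval included 1-fold. H2-D1 showed the same extremes, with 541 CPM (491 to 595) in T lineage-like and 2729 CPM (2551 to 2917) in NK and ILC-like cells. B2m was lowest in T lineage-like cells at 697 CPM (640 to 758) and highest in macrophage-like cells at 2715 CPM (2619 to 2813). All 3 genes were thus separated from every other class in T lineage-like cells, by 3.90-fold to 5.04-fold between the extremes. These levels are shares of UMIs, and NK and ILC-like cells were the shallowest class, with a median of 975 UMIs. Summed over the 10 genes, they held 9.65 UMIs per cell. Macrophage-like cells held 25.7, neutrophil-like cells 11.4 and T lineage-like cells 6.17.

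The non-classical chains were ordered otherwise. H2-Q7 stood at 707 CPM (617 to 805) in NK and ILC-like and 488 CPM (426 to 556) in B lineage-like cells, and at 212 CPM in both dendritic and macrophage-like cells. It was near the bottom in 3 classes at once, with 86.8 CPM in T lineage-like, 80.2 in neutrophil-like and 69.4 in monocyte-like cells. With all UMIs in the totals, neighbours among those 3 values did not differ beyond counting error. H2-T23 was highest in dendritic cells at 436 CPM (409 to 464) and lowest in T lineage-like cells at 134 CPM (110 to 162).

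The peptide transporter subunits parted from each other. Tap1 was between 59.98 CPM (44.1 to 79.8) in T lineage-like and 117 CPM (103 to 132) in dendritic cells, and no neighbours in its order differed beyond counting error. Tap2 was highest in T lineage-like cells, at 161 CPM (134 to 191), and between 47.8 and 72.2 CPM in the 6 other classes. Tap2 therefore made up 72.8% of the summed Tap1 and Tap2 UMIs in T lineage-like cells (exact binomial interval 65.6 to 79.3) and 32.5% in dendritic cells (27.9 to 37.4). Tapbp was lowest in T lineage-like cells at 75.3 CPM (57.3 to 97.1) and highest in macrophage-like cells at 294 CPM (263 to 328).

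The immunoproteasome subunits were highest in dendritic cells and had their lowest values in neutrophil-like cells, where Psmb9 did not differ from NK and ILC-like cells beyond counting error. Psmb8 stood at 923 CPM (883 to 963) in dendritic, 504 CPM (456 to 556) in T lineage-like and 250 CPM (221 to 280) in neutrophil-like cells. Psmb9 stood at 463 CPM (436 to 492), 212 CPM (181 to 247) and 168 CPM (145 to 193) in the same classes. Their levels in T lineage-like cells lay within counting error of those in NK and ILC-like cells.

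**Figure D1:**
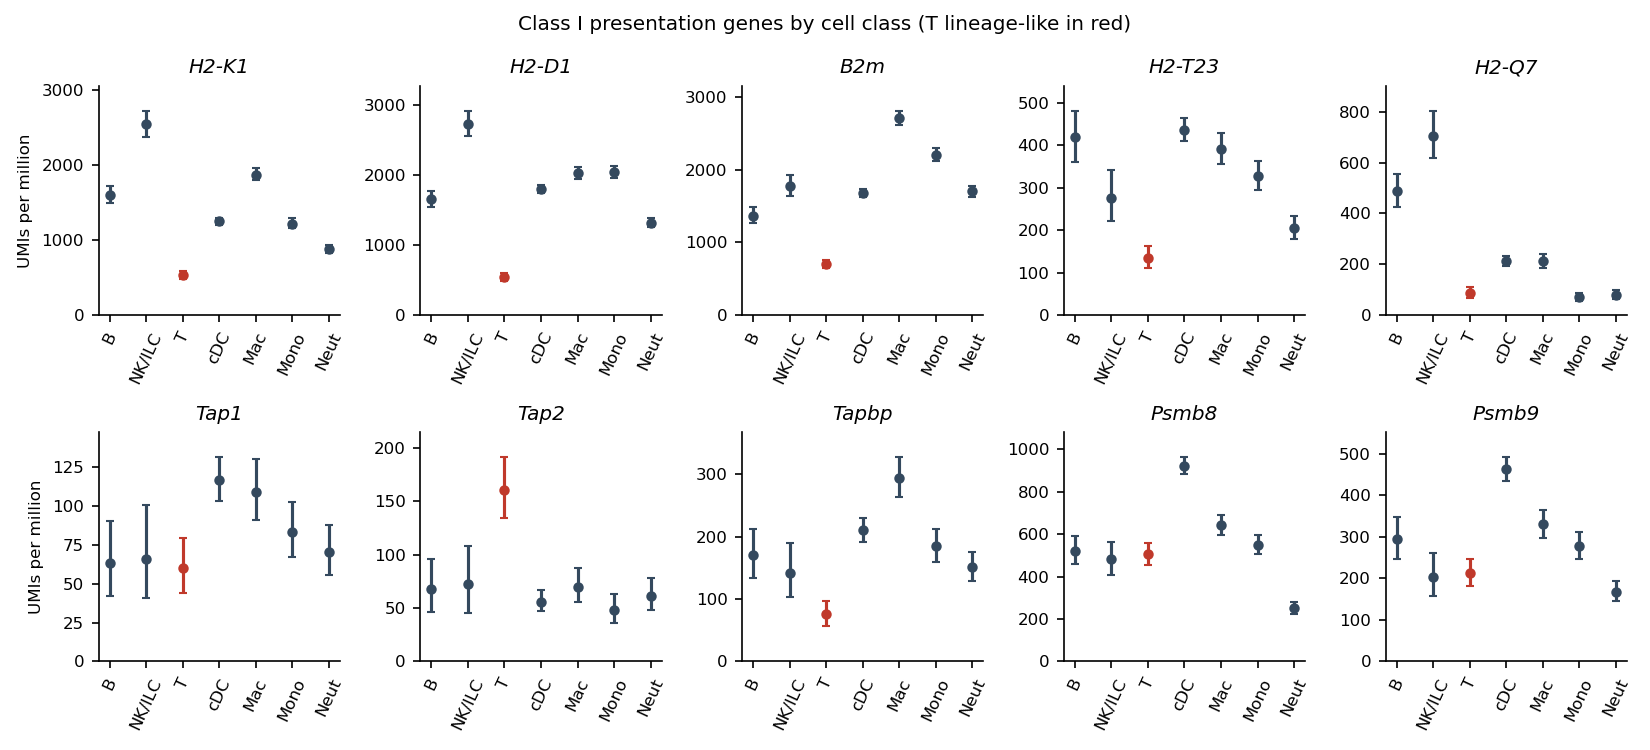
Levels of the 10 class I genes (CPM, linear axes from 0) in the 7 named classes; points are sums over all cells of a class and bars exact 95% Poisson intervals. T lineage-like cells (red) are lowest for 6 genes and highest for Tap2.

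Over the 10 genes together, summed levels ran from 3007 CPM (2886 to 3130) in T lineage-like and 4879 CPM in neutrophil-like cells to 8998 CPM in NK and ILC-like cells. The neutrophil-like value depends on what else those cells contain: S100a8 and S100a9 alone made up 37.5% of their UMIs, and without these UMIs in the total the summed level was 7806 CPM. The T lineage-like value without them was 3012 CPM. On that scale neutrophil-like cells stood at 268 CPM (231 to 309) for Psmb9, beside 212 CPM (181 to 247) in T lineage-like and 204 CPM (158 to 260) in NK and ILC-like cells, so that neutrophil-like cells no longer had the lowest value. Psmb8 stood at 399 CPM (354 to 449), the lowest value still, beside 481 CPM (408 to 563) in NK and ILC-like cells. H2-K1 was then 1406 CPM in neutrophil-like cells, and B2m was 2720 CPM beside 2722 CPM in macrophage-like cells. H2-Q7 was then 128 CPM (103 to 158) in neutrophil-like and 86.9 CPM (67.5 to 110) in T lineage-like cells. In monocyte-like cells it was 69.5 CPM (54.6 to 87.3), an interval apart from that of neutrophil-like cells.

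T lineage-like cells, the class in which low class I levels were looked for, were then set against the 2803 other kept cells. In T lineage-like cells 9 of the 10 genes were lower and 1, Tap2, was higher, each with an interval clear of 0 on the log2 scale. H2-D1 differed most, at 541 CPM against 1743 CPM, a log2 ratio of -1.69 (-1.83 to -1.55). B2m followed at -1.37, H2-T23 and Tapbp at -1.35, H2-K1 at -1.24 and H2-Q7 at -1.16. Psmb9 at -0.66, Tap1 at -0.64 and Psmb8 at -0.37 (-0.53 to -0.23) were closer to the other cells.

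With 10 CPM added to both sides, 6 of the 10 genes were at least 2-fold lower and 1 was at least 2-fold higher. Of all 8814 genes with 50 or more UMIs, 10.1% were 2-fold lower and 16.6% were 2-fold higher. The median log2 ratio was -1.15 over the 10 genes and 0.31 over all genes tested. Scaling by the median of gene ratios instead of total UMIs shifted every log2 ratio by 0.46 downward, and Tap2 then stood at 1.05 and Psmb8 at -0.83. H2-Q7 stood at -2.27 when 1000 UMIs and 500 genes were required, which kept 154 T lineage-like cells. With each cell thinned to 2000 UMIs, H2-Q7 at -0.56 (-1.20 to 0.02) and Tap1 at -0.36 (-1.16 to 0.34) had intervals that included 0. The median UMIs per cell were 1056 in T lineage-like and 2309 in other cells, and the part of depth in these differences was not tested.

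**Figure D2:**
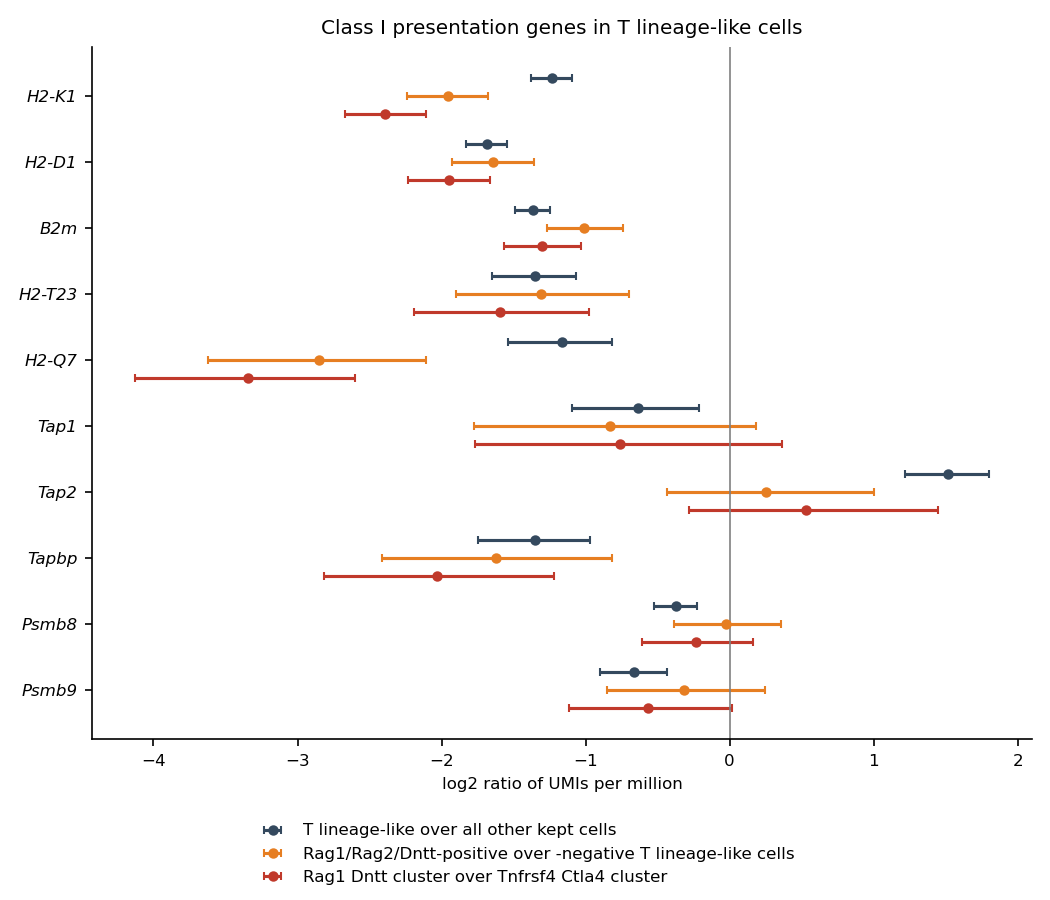
Log2 ratios of the 10 genes for T lineage-like over all other kept cells and for contrasts within the T lineage, with exact 95% binomial intervals; 0 is equal level. Tap2 at 1.51 is the only gene above 0 in the first contrast.

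Other genes of the pathway differed in both directions in T lineage-like cells. Of 35 listed genes 33 had a row, and 27 had 50 or more UMIs. With 10 CPM added to both sides, 5 of these 27 were at least 2-fold lower and 2 at least 2-fold higher, against the 10.1% and 16.6% of all genes given above, and their median was -0.18 beside 0.31 over all genes tested. The ratios that follow are without the added CPM. The lower genes included the heavy chain genes H2-M3 (16.6 against 77.8 CPM, log2 ratio -2.23) and H2-Q6 (-1.73). The proteasome activator subunit Psme2 (-1.15) and the transcription factor Irf8 (-1.63) were lower too. The coactivator Nlrc5 (8.93 against 19.3 CPM, -1.11, -2.45 to -0.03) was lower, but by less than 2-fold once 10 CPM were added. The higher genes included the cytokine signal inhibitor Socs1 (234 against 47.4 CPM, 2.30) and Cd1d1, which presents lipids (1.89). The tapasin relative Tapbpl (1.11) and the constitutive proteasome subunit Psmb6 (0.36) were higher, but by less than 2-fold once 10 CPM were added.

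Each immunoproteasome subunit replaces a constitutive partner, Psmb8 replacing Psmb5, Psmb9 replacing Psmb6 and Psmb10 replacing Psmb7. Psmb8 made up 62.5% of the UMIs of its pair in T lineage-like cells (58.6 to 66.3) and 70.6% over all kept cells. Psmb9 made up 42.5% of its pair in T lineage-like cells (37.5 to 47.5), against 58.5% over all kept cells. For Psmb10 the shares were 46.3% (39.0 to 53.7) and 68.4%. Low shares were not limited to the T lineage, with 45.8% for Psmb9 in NK and ILC-like, 50.4% for Psmb10 in neutrophil-like and 64.2% for Psmb8 in monocyte-like cells. Within the T lineage the Psmb10 share was 41.4% (33.7 to 49.3) in the larger cluster, with Rag1 and Dntt, and 76.9% (56.4 to 91.0) in the smaller. The Psmb9 share was 40.3% (34.9 to 45.9) and 53.0% (40.3 to 65.4). These are shares of UMIs and not of protein.

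The T lineage-like class held 2 clusters that differed widely in class I levels, a contrast chosen after its values were seen. The larger, of 290 cells, had Rag1 at 747 CPM and Dntt at 633 CPM, genes of antigen receptor rearrangement, and no Ccr7 UMI. The smaller, of 92 cells, had no Rag1 UMI, Ccr7 at 318 CPM and Ms4a4b at 903 CPM, markers of mature T cells. It is called the mature cluster below, although its leading genes also included Tnfrsf4, Ikzf2, Icos and Ctla4. Ccr9, a listed thymocyte gene, was alike at 226 CPM beside 250 CPM in the larger. Type I interferon response genes summed to 1254 CPM in the smaller and 343 CPM in the larger cluster. The part of these differences in the class I levels was not tested. Their median UMIs per cell were 1058 and 1049. H2-K1 stood at 325 CPM (283 to 372) in the Rag1 Dntt cluster and 1705 CPM (1479 to 1956) in the other, a log2 ratio of -2.39 (-2.67 to -2.11). H2-Q7 showed the widest gap, with 36.1 against 368 CPM and a ratio of -3.35 (-4.13 to -2.60). H2-D1 (-1.95), B2m (-1.30), H2-T23 (-1.59) and Tapbp (-2.03) were lower as well.

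For the other 4 genes the interval included 0. Psmb8 stood at 491 CPM (439 to 547) in the Rag1 Dntt cluster and 577 CPM (449 to 730) in the other, a ratio of -0.23 (-0.61 to 0.16). Tap2 stood at 169 CPM (139 to 203) and 117 CPM (64.0 to 196), a ratio of 0.53 (-0.28 to 1.44). Psmb9 was at -0.57 (-1.12 to 0.01) and Tap1 at -0.76 (-1.77 to 0.36). With 50 or more UMIs over both clusters, 6 of 9 genes were at least 2-fold lower in the Rag1 Dntt cluster, where 4.37% of all genes tested were. The median was -1.40 for the 9 genes and 0.34 for all genes.

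The share of cells with a UMI differed between the clusters for H2-K1, while for Psmb8 the intervals overlapped. With each cell thinned to 1000 UMIs, 20.7% of 150 cells of the Rag1 Dntt cluster (14.5 to 28.0) and 77.6% of 49 cells of the mature cluster (63.4 to 88.2) had an H2-K1 UMI. Psmb8 UMIs were in 43.3% (35.3 to 51.7) and 51.0% (36.3 to 65.6). Thinning left out 140 and 43 shallower cells, and without it the H2-K1 shares were 24.8% and 68.5%.

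A gate on the rearrangement genes largely repeated the division into clusters. At least 1 UMI of Rag1, Rag2 or Dntt was in 264 T lineage-like cells, of which 54 had 1 UMI, and 118 cells had none. Of the positive cells 262 lay in the Rag1 Dntt cluster, and of the negative cells 90 lay in the mature cluster. H2-K1 stood at 345 CPM (300 to 393) in gate-positive and 1339 CPM (1161 to 1537) in gate-negative cells, a log2 ratio of -1.96. H2-Q7 was at -2.85, H2-D1 at -1.64, Tapbp at -1.62, H2-T23 at -1.31 and B2m at -1.01. Psmb8 at -0.02 (-0.39 to 0.36), Psmb9, Tap1 and Tap2 had intervals that included 0. At least 2-fold lower were 5 of 9 genes, against 3.57% of all genes tested, and the medians were -1.11 and 0.22. Within the Rag1 Dntt cluster alone, H2-K1 and B2m were not higher in cells without these UMIs. The 28 gate-negative cells, with a median of 626 UMIs, stood at 90.7 CPM (18.7 to 265) for H2-K1 on 3 UMIs and 272 CPM (124 to 516) for B2m. The 262 positive cells there stood at 338 CPM (294 to 386) and 585 CPM (527 to 648). Tap1 and Tap2 had higher values in the 28 cells, with overlapping intervals. Tap1 stood at 90.7 CPM (18.7 to 265) against 52.3 CPM (36.0 to 73.5). Tap2 stood at 242 CPM (104 to 476) against 165 CPM (135 to 200).

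Requiring 1000 UMIs and 500 genes left 13 gate-negative cells, and 5 of the 6 intervals then included 0, with H2-K1 at -0.66 (-1.37 to 0.15). Removing the 6% of cells with the highest doublet scores gave -3.11 for H2-K1, -3.16 for H2-D1 and -2.04 for B2m.

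UMIs of genes that T lineage cells should lack were present among these cells. Over 13 such genes in the Rag1 Dntt cluster, the level as a percentage of that in other kept cells had a median of 16.5% (range 0.822% to 28.9%). Over the 10 class I genes the median was 30.8%, from 18.6% for H2-Q7 and 21.6% for H2-D1 to 75.2% for Psmb8 and 299% for Tap2. In the mature cluster the medians were 7.56% and 94.5%. H2-Q7, H2-D1, H2-K1 and Tapbp lay within the range of the lacking genes, H2-T23 and B2m (31.7%) just above it, and Psmb8, Psmb9, Tap1 and Tap2 further above.

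Cells of the Rag1 Dntt cluster were divided, after these values were seen, by UMIs of the myeloid genes Lyz2, Tyrobp and Fcer1g. None were found in 185 cells (63.8%, median 867 UMIs), while 24 cells (8.28%, median 4822 UMIs) had 10 or more and held 86.0% of them. H2-K1 stood at 148 CPM (109 to 197) in the 185 cells and at 931 CPM (778 to 1107) in the 24. B2m stood at 255 CPM (203 to 317) and 1458 CPM (1264 to 1674), and H2-D1 at 132 CPM (95.4 to 179) and 1141 CPM (970 to 1333). H2-Q7 had 2 UMIs in the 185 cells, 6.31 CPM (0.764 to 22.8).

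Tap2 and Psmb8 were not lower in the cells without myeloid UMIs. Tap2 stood at 233 CPM (183 to 293) in them and 72.2 CPM (34.6 to 133) in the 24 cells, and Psmb8 at 501 CPM (426 to 586) and 404 CPM (305 to 525). Without T lineage-like cells that had such UMIs, the gate's ratios were -3.13 for H2-K1, -3.17 for H2-D1 and -2.22 for B2m. Whether the myeloid UMIs came from free RNA or from cells joined in a droplet was not tested.

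**Figure D3:**
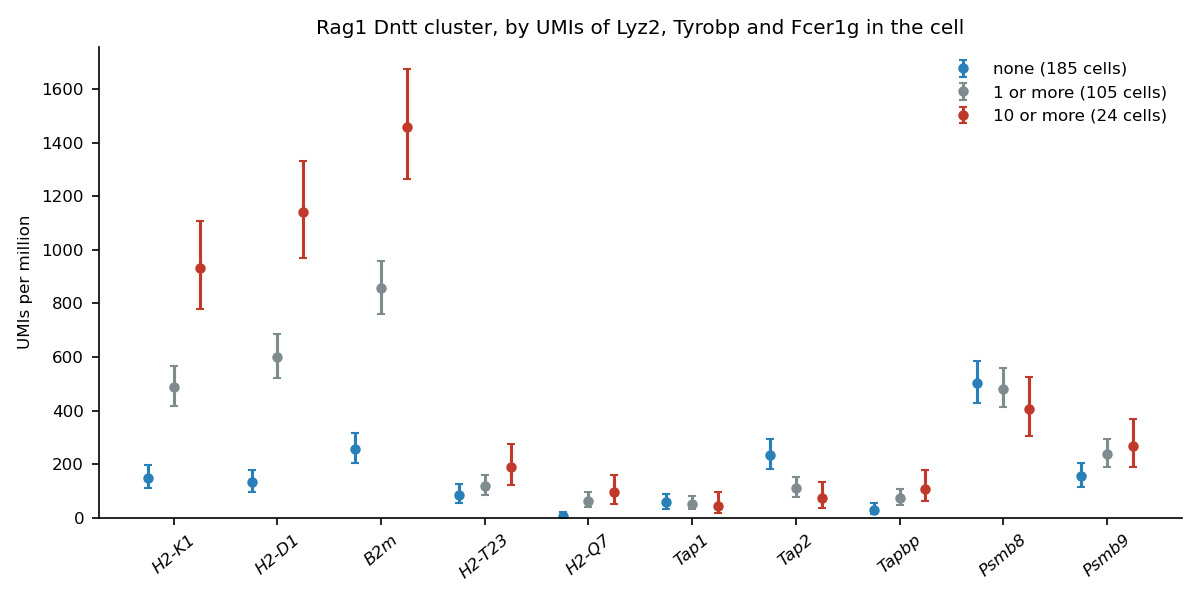
Levels of the 10 genes (CPM, linear axis from 0) in cells of the Rag1 Dntt cluster, divided by their UMIs of Lyz2, Tyrobp and Fcer1g (the 24 cells with 10 or more are also among the 105 with 1 or more); bars are exact 95% Poisson intervals. H2-K1 stands at 148 in cells with none and 931 in cells with 10 or more, while Tap2 stands at 233 and 72.2.

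Finer clustering divided the Rag1 cells into a Dntt Trdc cluster of 137 cells (median 2675 UMIs) and a Rag1 Cd8b1 cluster of 154 cells (median 615.5 UMIs). The cell division genes Top2a and Hist1h1b were among the leading genes of the Dntt Trdc cluster, and the part of division in these differences was not tested. H2-D1 stood at 249 against 763 CPM (-1.61, -1.99 to -1.23), H2-K1 at 267 against 557 CPM (-1.06) and B2m at 495 against 900 CPM (-0.86). Psmb9 was higher in the Dntt Trdc cluster, at 216 against 110 CPM (0.97, 0.21 to 1.83). At least 2-fold lower were 2 of 7 genes, against 9.66% of all genes tested, with medians of -0.50 and 0.10. The 13 lacking genes had a median of 7.72% of the level in other cells in the first cluster and 41.0% in the second. In the 89 and 96 cells of these clusters without a Lyz2, Tyrobp or Fcer1g UMI the intervals overlapped: H2-D1 stood at 119 CPM (80.4 to 170) and 184 CPM (94.9 to 321), H2-K1 at 139 CPM (96.8 to 193) and 184 CPM (94.9 to 321), and B2m at 242 CPM (185 to 311) and 306 CPM (187 to 473).

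Within dendritic cells, a cluster of 117 cells with Ccr7 and Fscn1, markers of activated migratory dendritic cells, had higher levels of all 10 genes than the 561 cells of the Cd209a Epcam cluster. This pair and the myeloid pairs that follow were chosen after their values were seen. The 561 cells may include plasmacytoid cells, as given above. At the finer resolution a Mmp12 Ccl17 cluster of 447 cells stood at 131 CPM for H2-Q7 and 993 CPM for H2-K1. H2-Q7 differed most, at 790 CPM (698 to 891) against 111 CPM (96.3 to 127), a log2 ratio of 2.84 (2.57 to 3.10). H2-K1 stood at 2924 against 951 CPM (1.62), B2m at 3578 against 1350 CPM (1.41) and H2-D1 at 3779 against 1455 CPM (1.38). Both transporter subunits were higher, Tap1 at 237 against 95.6 CPM (1.31, 0.91 to 1.69) and Tap2 at 112 against 46.3 CPM (1.28, 0.69 to 1.84). H2-T23 (0.78), Psmb9 (0.63), Tapbp (0.54) and Psmb8 (0.53) differed by less than 2-fold.

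At least 2-fold higher were 6 of 10 genes, against 8.77% of 4206 genes tested, and the medians were 1.17 and -0.29. The summed level of 14297 CPM (13896 to 14706) compares with 5893 CPM in the Cd209a Epcam cluster. Other genes of the pathway differed in both directions. Of 21 other genes, 8 were at least 2-fold higher with 10 CPM added to both sides. Psme2 stood at 1364 against 416 CPM (1.71), Nlrc5 at 101 against 13.5 CPM (2.90) and the heavy chain gene H2-M2 at 255 against 7.28 CPM (5.13). The general chaperones of the endoplasmic reticulum were lower, Pdia3 at -1.54, Canx at -1.14 and Calr at -0.57, as were Psmb5 at -0.96 and Psmb6 at -0.88. Psmb8 made up 87.6% of its pair with Psmb5 (84.3 to 90.4) and Psmb9 80.3% of its pair with Psmb6 (75.1 to 84.8).

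In macrophage-like cells, 9 of the 10 genes were higher in the Ccl12 C1qa cluster of 303 cells than in the Vcam1 Spic cluster of 73 cells. B2m stood at 2987 CPM (2875 to 3102) against 1580 CPM (1417 to 1757), a ratio of 0.92. H2-Q7 at 1.30, Tapbp at 1.25 and Psmb8 at 1.02 differed most, and Tap2 did not differ beyond counting error at -0.11 (-0.92 to 0.79). With 10 CPM added, 2 genes were at least 2-fold higher, against 7.18% of genes tested, with medians of 0.81 and 0.00. Psmb10 (1.54), an immunoproteasome subunit, was higher in the same cluster.

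In neutrophil-like cells, the heavy chain genes and B2m stood apart from the rest. They were higher in the Retnlg Cxcr2 cluster of 240 cells than in the Ltf Camp cluster of 245 cells, whose genes encode granule proteins of immature neutrophils. H2-Q7 stood at 197 against 32.3 CPM (2.61), H2-D1 at 2330 against 899 CPM (1.37), H2-T23 at 1.30, H2-K1 at 1.09 and B2m at 0.63. The transporter, tapasin and immunoproteasome genes ran from -0.16 to 0.16, all with intervals that included 0. Median UMIs per cell were 1206 and 2584. At the finer resolution Psmb8 was uneven, at 176 CPM (127 to 239) in a Retnlg Mmp8 cluster and 425 CPM (307 to 575) in a Csf3r Stfa2l1 cluster. It stood at 235 CPM (187 to 291) in an Ltf Ly6g and 274 CPM (228 to 327) in a Camp Ngp cluster. S100a8 and S100a9 made up 40.4% of UMIs in the Retnlg Mmp8 and 15.4% in the Csf3r Stfa2l1 cluster. Their part in the Psmb8 levels of these clusters was not tested. For Tap1, Tap2, Tapbp and Psmb9 the intervals of the Retnlg Mmp8 and Csf3r Stfa2l1 clusters overlapped. At least 2-fold higher were 4 of 10 genes, against 16.0% of genes tested, and the medians were 0.39 and 0.14.

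In monocyte-like cells divided at the finer resolution, 101 cells with Ace and Treml4, markers of non-classical monocytes, were set against 386 cells with F13a1. Ace and Treml4 were raised in the 386 cells too, against all other kept cells, so these cells did not lack them. H2-K1 stood at 2055 against 1086 CPM (0.92), B2m at 3466 against 1984 CPM (0.80) and H2-D1 at 2843 against 1911 CPM (0.57). H2-Q7 was at 1.58 and Tap2 at 1.90 (0.96 to 2.79), the latter on 18 and 29 UMIs. At least 2-fold higher was 1 of 9 genes, against 6.99% of genes tested, with medians of 0.47 and 0.03.

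**Figure D4:**
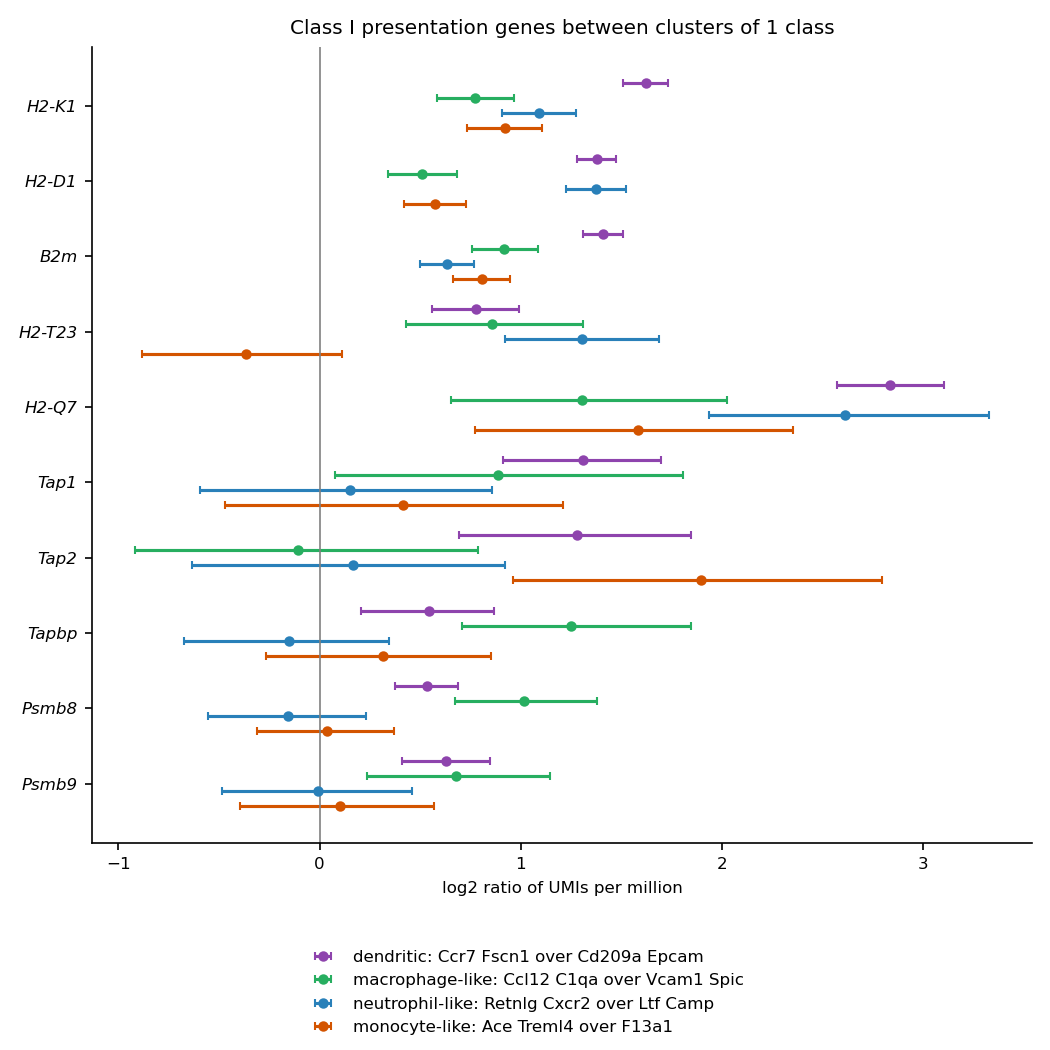
Log2 ratios of the 10 genes between pairs of clusters of 1 class, with exact 95% binomial intervals; 0 is equal level. H2-Q7 lies above 0 in all 4 myeloid pairs, from 1.30 to 2.84.

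Cells were also divided within each class by 17 type I interferon response genes, with each cell thinned to 2000 UMIs. Cells with 3 or more UMIs of these genes were called interferon-high and cells with none interferon-low, and 181 dendritic, 62 macrophage-like, 71 monocyte-like and 50 neutrophil-like cells lay between. The arms drew unequally on the clusters of a class. The Vcam1 Spic cluster gave 7.64% of interferon-high and 35% of interferon-low macrophage-like cells, the Retnlg Cxcr2 cluster 27.5% and 12.5% of neutrophil-like cells, and the Ccr7 Fscn1 cluster 10.2% and 17.1% of dendritic cells. The part of this in the ratios was not tested. Counts of intervals above 0 in the classes that follow have no share over all genes beside them, and the 2-fold counts do.

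In macrophage-like cells, 157 against 40, Tap1 stood at 132 CPM (105 to 165) against 32.5 CPM (10.6 to 75.9), a log2 ratio of 2.02 on 78 and 5 UMIs. H2-T23 (487 against 228 CPM), Psmb9 (407 against 195 CPM) and Psmb8 (736 against 371 CPM) were higher too, and Tap2 was at -0.25 (-1.17 to 0.77). In all, 8 genes had an interval above 0 and 3 of 10 were at least 2-fold higher, against 7.41% of genes tested, with medians of 0.70 and 0.04.

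In dendritic cells, 205 against 205, differences were smaller. Tapbp stood at 285 against 160 CPM (0.83, 0.50 to 1.17) and H2-T23 at 518 against 376 CPM (0.46), while H2-D1 was at 0.05 (-0.06 to 0.16). There 6 genes had an interval above 0, and 0 of 10 were 2-fold higher, against 2.79% of genes tested, with medians of 0.32 and 0.02. With cells thinned to 1000 UMIs, 4 of those 6 intervals included 0. In monocyte-like cells, 112 against 62, the interval was above 0 for 6 genes. None of 7 genes with 50 or more UMIs was 2-fold higher there, against 4.37% of genes tested, and the medians were 0.50 and 0.01.

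In neutrophil-like cells, 120 against 24, H2-T23 stood at 220 against 51.4 CPM (2.10, 0.92 to 3.58), H2-D1 at 1172 against 411 CPM (1.51) and B2m at 1665 against 711 CPM (1.23). At least 2-fold higher were 6 of 7 genes, against 17.3% of genes tested, with medians of 1.14 and 0.33. With cells thinned to 1000 UMIs, 5 of the 8 intervals above 0 included it, and with median-of-ratios scaling 3 did, those of Tap1, Psmb8 and Psmb9. The 24 cells had a median of 4147 UMIs against 2977 in the 120, and the part of depth was not tested. The differences between classes in these ratios were not tested either. B lineage-like, NK and ILC-like and T lineage-like cells had fewer than 20 cells in an arm and were not compared.

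Across the 13 clusters of 50 or more cells, levels on the log2(CPM + 10) scale were correlated among the 10 genes. This describes 1 library, and whether free RNA shared between clusters had a part was not tested. The median Pearson r over 45 pairs was 0.56, from -0.16 to 0.94, the highest being Psmb8 with Psmb9. Tap2 stood apart, with a median r of -0.01 with the other 9. Over all 15 clusters and 4404 genes ranked, the genes most like H2-K1 were H2-Q7 (r = 0.94), H2-Q4 (0.93) and B2m (0.90). Without the 2 clusters of under 50 cells these were 0.88, 0.86 and 0.84, and H2-D1 stood above them at 0.92. Those most like Tap2 were Trip12 (0.89), Smg1 (0.88) and Socs1 (0.87), with 0.76, 0.75 and 0.81 without the 2 clusters of under 50 cells.

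**Figure D5:**
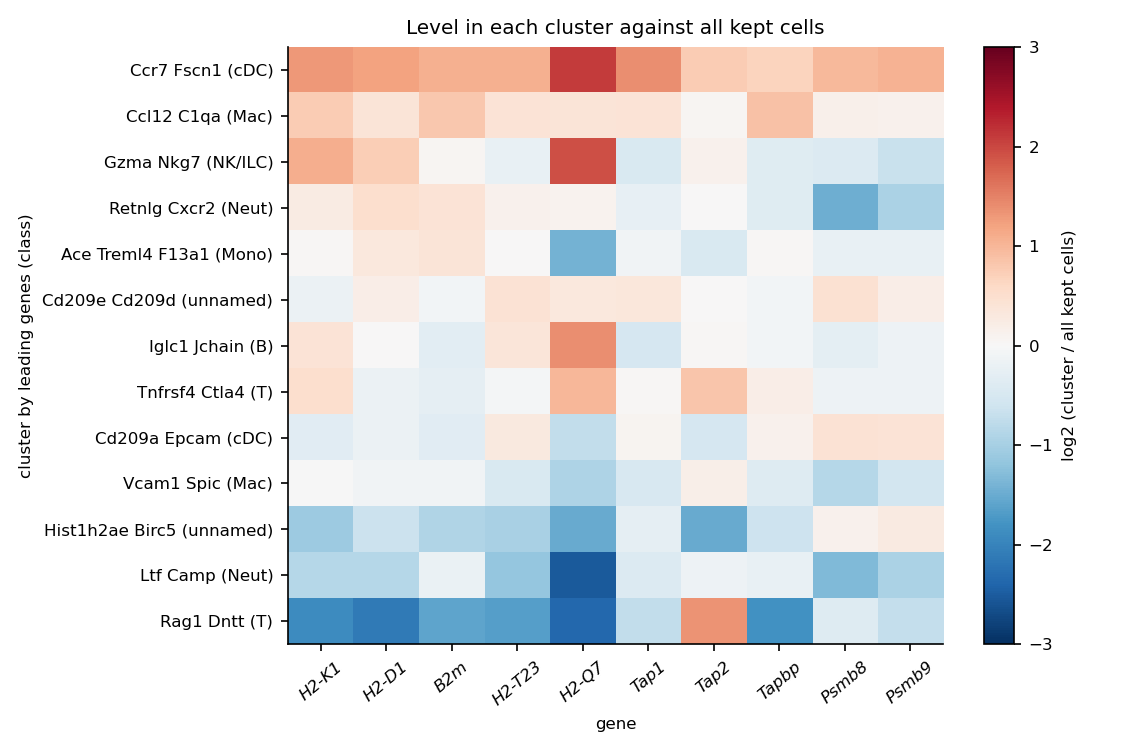
Levels of the 10 genes in clusters of at least 50 cells, coloured by the log2 ratio to the gene's level over all kept cells. The Ccr7 dendritic cluster is high for every gene, and the Rag1 Dntt cluster is low for heavy chains and high for Tap2.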

How the data were processed

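The authors deposited raw UMI count matrices of 2 single-cell 3′ libraries, made with Cell Ranger 6.0.0 and 8.0.0 per the file headers and mm10 per the submitters' processing notes. The annotation and the settings for strand and introns are not given in the sources used here. Counts of the 2021 library were used for genes, and the 2024 library (2815 barcodes, 24569270 UMIs) for depth only, so barcodes shared between libraries were not counted and no replicate was left out. A barcode was used (3188 in all) if it held 500 UMIs or more from 300 genes or more, with no more than 10% of its UMIs mitochondrial. Scrublet called 3 doublets (0.0941%, threshold 0.523), too few to have worked as a doublet caller, and these were removed. Counts scaled to 10000 per cell were clustered with scanpy 1.11.5 (2000 variable genes without the class I pathway, 30 components, 15 neighbours, Leiden resolution 0.5, igraph 0.11.9). Clusters of at least 50 cells, a minimum set after clusters of 13 and 11 cells were seen, were named by 3 or more raised markers. UMIs were summed per class, with exact 95% intervals from scipy 1.17.1 (Python 3.11.15, numpy 2.4.6, pandas 2.3.3). Calls of 2-fold use 10 CPM added and genes with at least 50 UMIs. The scripts were tested on simulated data.

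All 10 genes are named, with a list of other pathway genes, interferon lists and, for each gene, the 3 genes of most similar level over clusters among those with at least 200 UMIs. The genes, lists and comparisons were chosen with earlier results of these data known. Promoters are from the RefSeq table of GRCm38.p6.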

Additional observations from a re-analysis of the deposited data

How the results depend on the processing

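The median log2 ratio of the 10 genes in T lineage-like over other cells, -1.20, was -1.54 in cells with at least 1000 UMIs and 500 genes, -1.49 without the 6% highest doublet scores and -1.66 with median-of-ratios scaling. For gate-positive over gate-negative cells, -1.16 became -1.93 without the 6% highest doublet scores and -1.94 in cells without Lyz2, Tyrobp or Fcer1g UMIs, an alternative added after the data were seen. The cause was not tested. The stricter filter left 154 T lineage-like cells, 13 of them gate-negative. The number of genes lowest in T lineage-like cells, 6, ran from 4 to 9 over the alternatives. The interferon medians ran from 0.24 to 0.34 in dendritic, 0.62 to 0.99 in macrophage-like, 0.45 to 0.57 in monocyte-like and 0.91 to 1.40 in neutrophil-like cells. Thinned to 1000 UMIs, macrophage-like and monocyte-like cells gave no median, since a gene had no UMI in 1 arm. Of 438 values for single genes under these alternatives, 378 lay within the main interval, 60 lay outside it, and 0 of those whose main interval was clear of 0 changed sign. Leaving S100a8 and S100a9 out of the totals was also added after the data were seen. No paired analysis was possible because gene names were used for 1 library only, and for the same reason no replicate was left out. Genes with few UMIs, above all H2-Q7, Tap1, Tap2 and Tapbp in the smaller groups, are limited by depth.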
